A study of Bos taurus with 9 samples.

Results

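The 8 miRBase entries described here, bta-miR-2904, bta-miR-2887, bta-miR-2478, bta-miR-1260b, bta-miR-664b, bta-miR-664a, bta-miR-1291 and bta-miR-1248, carry miRNA names but are thought to overlap ribosomal RNA (rRNA), transfer RNA (tRNA) or small nucleolar RNA (snoRNA). This assignment is background and was not tested on reads. They were picked by name, not by their values, and all 8 were present among the 515 mature miRNAs of the table. Small RNA libraries were made from the rectal wall of 9 steers, 1 library per animal. The 5 super-shedders (SS) had fecal E. coli O157 counts above 10000 colony-forming units per g, and the 4 non-shedders (NS) were negative for the bacterium. No agent was given to either group, all steers were feedlot pen-mates, and the SS were identified days before slaughter, by which time some shed less. No source used here gives the animals' ages.

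A canonical miRNA is cut from a hairpin by Drosha and Dicer and loaded into Argonaute, where it guides repression of mRNAs. Fragments of rRNA, tRNA and snoRNA that arise in RNA turnover have lengths that overlap those of miRNAs and enter small RNA libraries of tissue as well. Some snoRNAs of the H/ACA class, which guide pseudouridylation, are also cut by Dicer into short RNAs in human cells. A table of reads per miRNA name cannot tell a processed miRNA from such a fragment.

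The library totals, on which the unit CPM (reads scaled to a library total of 1000000) rests, were 1486495 to 6314556 reads in SS and 650726 to 2316164 reads in NS. One read was therefore worth 0.158 to 0.673 CPM in SS and 0.432 to 1.54 CPM in NS. NS steer 242 stood apart, with a column sum 8.94% above its library total against 2.49% to 3.54% in the other libraries. The tissue label was met, with the smooth muscle miRNA bta-miR-143 at 22.1% to 73.1% of a library and the intestinal epithelial bta-miR-192 at 0.330% to 27.1%. Read numbers in bulk tissue cannot tell fewer cells of a type from less RNA per cell.

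In the RefSeq gene table of the ARS-UCD2.0 assembly, 7 of the 8 entries had a precursor gene, and 9 precursor genes were listed in all, with bta-miR-2904 unmatched. None of the 9 overlapped an rRNA, tRNA, snoRNA or small nuclear RNA gene, and neither did any of the 1032 miRNA genes in that table, so the table does not hold such shared loci and does not show the grouping. Its neighbouring genes were as follows. MIR2887-2 lay within 10 kb of RN18S1, the 18S rRNA gene, and of a further rRNA gene, LOC112444653. MIR1248-1, inside the translation factor gene EIF4A2, had 3 snoRNA genes within 10 kb, and MIR1291, inside KANSL2, had 2 snoRNA genes. Across all miRNA genes 3.97% had an rRNA, tRNA, snoRNA or small nuclear RNA gene that close. MIR664B lay inside RAB3GAP2 and MIR664A inside DKC1, the gene of the pseudouridine synthase dyskerin, both without such a neighbour. In human, RAB3GAP2 and DKC1 each hold a snoRNA of the SNORA36 family together with a miR-664 entry. MIR1260B lay inside MAML2, MIR1248-2 inside MYO5A, and MIR2478 and MIR2887-1 overlapped no gene.

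Together the 8 entries held 1240 of 23869764 reads, which is 0.00519% of all library totals. In order of mean level over the 9 libraries, bta-miR-664b came first with 41.7 ± 14.7 CPM (SD, n = 9), rank 154 of the 515 miRNAs. It was followed by bta-miR-2904 with 13.5 ± 24.4 CPM and bta-miR-1291 with 10.3 ± 18.1 CPM (SD, n = 9 each). These neighbours did not hold a fixed order, since bta-miR-2904 exceeded bta-miR-1291 in 5 of 9 libraries. The other 5 were near the detection limit, with means of 2.53 CPM for bta-miR-2887, 1.56 CPM for bta-miR-2478, 1.38 CPM for bta-miR-1260b, 0.351 CPM for bta-miR-1248 and 0.108 CPM for bta-miR-664a. They rested on 26, 24, 27, 5 and 2 reads in all 9 libraries, and within a library the order of bta-miR-2887, bta-miR-2478 and bta-miR-1260b was not stable. Levels of different entries also carry differences in ligation and read assignment, so the order is a description.

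**Figure D1:**
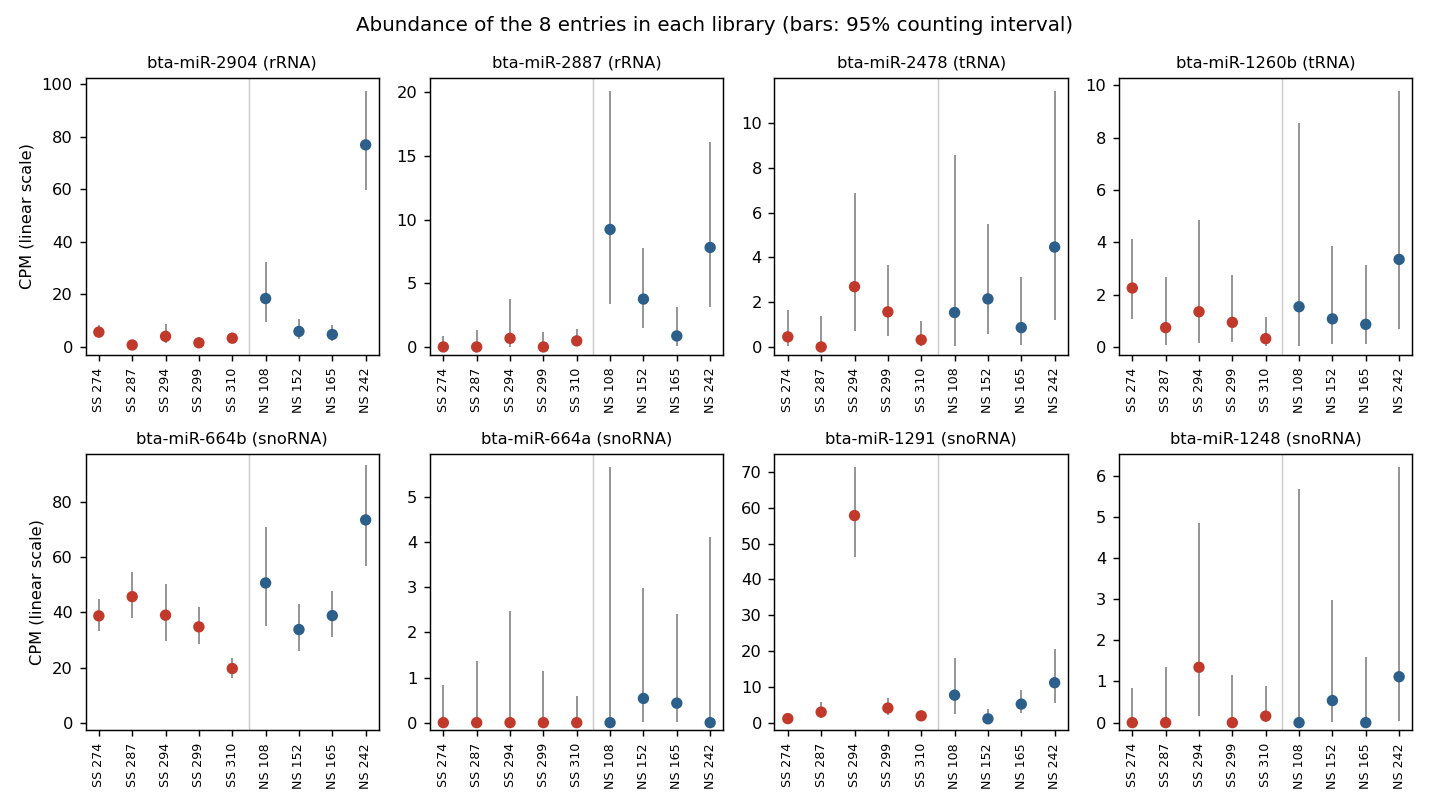
Abundance in CPM (linear axis, own scale per panel) of each of the 8 entries in the 5 SS libraries (red, left) and the 4 NS libraries (blue, right), 1 point per steer, with bars for the 95% Clopper-Pearson counting interval. For bta-miR-2904 NS steer 242 stands at 77.0 CPM, for bta-miR-1291 SS steer 294 stands at 57.9 CPM, and bta-miR-2887 is at or below 0.673 CPM in every SS library.

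On the log2(CPM + 1) scale the entries of rRNA, the RNA core of the ribosome, had the lowest differences of SS minus NS among the 8. Neither passed the adjusted test in limma. By exact permutation no entry could reach an adjusted p under 0.1 by its own values. For bta-miR-2904 the abundance was 5.63, 0.738, 4.04, 1.57 and 3.33 CPM in SS steers 274, 287, 294, 299 and 310, against 18.4, 5.90, 4.75 and 77.0 CPM in NS steers 108, 152, 165 and 242. With the deposited values it was below every NS library in 4 of 5 SS libraries, and the groups overlapped because SS steer 274 lay above NS steer 165. With TMM factors, median-of-ratios factors or the total without bta-miR-143, 3 of 5 SS libraries lay below every NS library. The deposited values rested on 25, 2, 6, 5 and 21 reads in SS and 12, 11, 11 and 69 reads in NS. It averaged 3.06 ± 1.95 CPM in the SS libraries and 26.5 ± 34.2 CPM in the NS libraries (SD, n = 5 and 4). On the log2(CPM + 1) scale SS minus NS was -2.10 (SE 0.75), which did not pass in limma with Benjamini-Hochberg adjustment (adjusted p = 0.297). Of the 245 log2 differences tested it was number 5 from the lowest, a rank that rested on single libraries, since it was 23 without NS steer 242 and 17 without SS steer 287. It was 18 with a pseudocount of 5. Without NS steer 242 the log2 difference was -1.33 (limma adjusted p = 0.587).

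NS steer 242, the library with the highest bta-miR-2904, also had the highest value of all 4 leukocyte miRNAs checked (bta-miR-150, bta-miR-155, bta-miR-142-5p and bta-miR-142-3p) and of both erythrocyte miRNAs (bta-miR-451 and bta-miR-486). The summed leukocyte miRNAs were at 380.2 to 15876 CPM in SS and 3256 to 41851 CPM in NS, with NS steer 242 highest, and none of the 4 was at 0 in any library. NS steer 242 and NS steer 108, the other NS library with a high bta-miR-2904, also had the lowest library totals, 896649 and 650726 reads. The part of cell makeup and of depth in the bta-miR-2904 values was not tested.

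For bta-miR-2887, the second rRNA entry, the abundance was 0, 0, 0.673, 0 and 0.475 CPM in SS steers 274, 287, 294, 299 and 310, against 9.22, 3.76, 0.863 and 7.81 CPM in NS steers 108, 152, 165 and 242. Every SS library was below every NS library. The reads were 0, 0, 1, 0 and 3 in SS and 6, 7, 2 and 7 in NS. The 3 SS libraries without a read allow up to 0.676 CPM in steer 274, 1.11 CPM in steer 287 and 0.940 CPM in steer 299, and the last pair of limits lies above the 0.863 CPM of NS steer 165, whose 95% Clopper-Pearson interval was 0.105 to 3.12 CPM. The separation of NS steer 165 from SS was therefore not detectable at this depth. The interval of SS steer 294, 0.0170 to 3.75 CPM, also reached those of all 4 NS libraries. Such limits and intervals cover counting error only.

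Being under the filter of 5 CPM in at least 4 libraries, bta-miR-2887 was tested by exact permutation of the group labels over the 9 libraries. The mean log2 difference was -2.15 (two-sided exact permutation p = 0.00794, the smallest that this design can give, and 0.292 adjusted over all 515 miRNAs). Even at that smallest p, an adjusted p under 0.1 was out of reach for any 1 entry by its own values. The permutation could therefore not pass bta-miR-2887. At these read numbers the size of the log2 difference depended on the pseudocount, and it was -3.42 with 0.25 CPM and -0.91 with 5 CPM in place of 1 CPM. With no filter, limma gave an adjusted p of 0.243. Of 3 count tests with no filter, chosen after seeing the data, edgeR's quasi-likelihood test gave an adjusted p of 0.297. In edgeR's exact test bta-miR-2887 (log2 difference -3.19, adjusted p = 0.0660) was 1 of 4 miRNAs called lower in SS, 0.777% of 515. In DESeq2 (-3.49, adjusted p = 0.0697) it was 1 of 6 called lower, 1.5% of the 400 given an adjusted p. The groups ceased to be apart when the libraries were rescaled with TMM factors, under which 4 of 5 SS libraries lay below every NS library.

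The entries assigned to tRNA, the adaptors that carry amino acids to the ribosome, were scarce in both groups. For bta-miR-2478 the abundance was 0.451, 0, 2.69, 1.57 and 0.317 CPM in SS steers 274, 287, 294, 299 and 310, against 1.54, 2.15, 0.863 and 4.46 CPM in NS steers 108, 152, 165 and 242. No library held more than 5 reads of it, and the groups overlapped (log2 difference -0.75, exact permutation p = 0.167, 0.627 adjusted over all miRNAs). For bta-miR-1260b the abundance was 2.25, 0.738, 1.35, 0.940 and 0.317 CPM in SS steers 274, 287, 294, 299 and 310, against 1.54, 1.07, 0.863 and 3.35 CPM in NS steers 108, 152, 165 and 242. Its groups overlapped as well, with 2 to 10 reads in SS and 1 to 3 reads in NS. The log2 difference of bta-miR-1260b was -0.34 (exact permutation p = 0.357, 0.727 adjusted over all miRNAs), and it turned to 0.07 with TMM factors.

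The snoRNA entry bta-miR-664b had the lowest relative spread of the 8. Its abundance was 38.8, 45.7, 39.0, 34.8 and 19.6 CPM in SS steers 274, 287, 294, 299 and 310, against 50.7, 33.8, 38.9 and 73.6 CPM in NS steers 108, 152, 165 and 242. The groups overlapped, with SS steer 310 lowest and NS steer 242 highest. It averaged 35.6 ± 9.75 CPM in the SS libraries and 49.2 ± 17.7 CPM in the NS libraries (SD, n = 5 and 4), and SS minus NS was -0.45 on the log2 scale (SE 0.45, limma adjusted p = 0.544). The coefficient of variation of bta-miR-664b over the 9 libraries was 35.4%. Among 55 miRNAs with a mean within a factor of 2 of its own, 51 varied more, and their median was 73.2%. Counting alone would give 10.3% at the mean read number of bta-miR-664b, 23.6% for bta-miR-2904 and 24.3% for bta-miR-1291. The observed values for the last pair were 181% and 175%. The other 5 entries held 2 to 27 reads in all, where counting error adds more to the spread.

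The near namesake bta-miR-664a was almost absent. It held 1 read each in NS steers 152 and 165 (0.536 and 0.432 CPM) and 0 reads in the other 7 libraries, all 5 SS libraries among them, where the counts of 0 allow up to 0.475 to 2.02 CPM. In the same libraries bta-miR-664b held 33 to 172 reads, so that nearly all reads named miR-664 in this tissue were those of bta-miR-664b, the entry inside RAB3GAP2. The difference of bta-miR-664a between groups was not detectable at this depth (exact permutation p = 0.167, 0.627 adjusted over all miRNAs).

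The snoRNA entry bta-miR-1291, whose human namesake shares its locus with the H/ACA snoRNA SNORA34, was set by 1 animal. Its abundance was 1.13, 2.95, 57.9, 4.07 and 1.90 CPM in SS steers 274, 287, 294, 299 and 310, against 7.68, 1.07, 5.18 and 11.2 CPM in NS steers 108, 152, 165 and 242. SS steer 294 held 86 reads of it (95% Clopper-Pearson interval 46.3 to 71.4 CPM), and the other SS libraries held 5 to 13 reads. It averaged 13.6 ± 24.8 CPM in the SS libraries and 6.27 ± 4.24 CPM in the NS libraries (SD, n = 5 and 4), whereas SS minus NS was -0.03 on the log2 scale (SE 0.91, limma adjusted p = 0.982). Without SS steer 294 it was -0.86 (limma adjusted p = 0.313), while edgeR's quasi-likelihood test on the recovered reads of all libraries gave 1.35 (adjusted p = 0.632). SS steer 294 was also the library with the highest sum of 6 intestinal epithelial miRNAs, 397381 CPM, against 4124 to 238302 CPM in the other SS libraries and 24446 to 130331 CPM in NS. It had the highest value of 4 of these 6, none of the 6 was at 0 in any library, and their part in the bta-miR-1291 value was not tested.

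The last snoRNA entry, bta-miR-1248, held 2 reads in SS steer 294, 1 read in SS steer 310, 1 read in NS steer 152 and 1 read in NS steer 242, and none in the other 5 libraries. Its human namesake shares a locus with SNORA81 in EIF4A2. The means were 0.301 CPM in SS and 0.413 CPM in NS, a difference not detectable at this depth (exact permutation p = 0.762, 0.939 adjusted over all miRNAs).

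Taken by the RNA they are assigned to, the makeup of the 8 entries differed between animals. The snoRNA entries took 82.7% to 97.1% of the summed CPM of the 8 in SS and 48.1% to 85.8% in NS. The rRNA entries took 11.7%, 1.47%, 4.40%, 3.65% and 14.5% in SS steers 274, 287, 294, 299 and 310, against 31.0%, 19.8%, 10.8% and 47.5% in NS steers 108, 152, 165 and 242. These shares overlapped between groups through SS steers 274 and 310 and NS steer 165, and they do not depend on the library total. The abundance of bta-miR-2904 as a ratio to that of bta-miR-664b in the same library was 0.0161 to 0.169 in SS and 0.122 to 1.05 in NS. In NS steer 242 alone bta-miR-2904 was the highest of the 8, in SS steer 294 bta-miR-1291 was, and in the other 7 libraries it was bta-miR-664b. The order in NS steer 242 rested on 69 reads of bta-miR-2904 against 66 of bta-miR-664b, and their counting intervals overlapped.

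**Figure D2:**
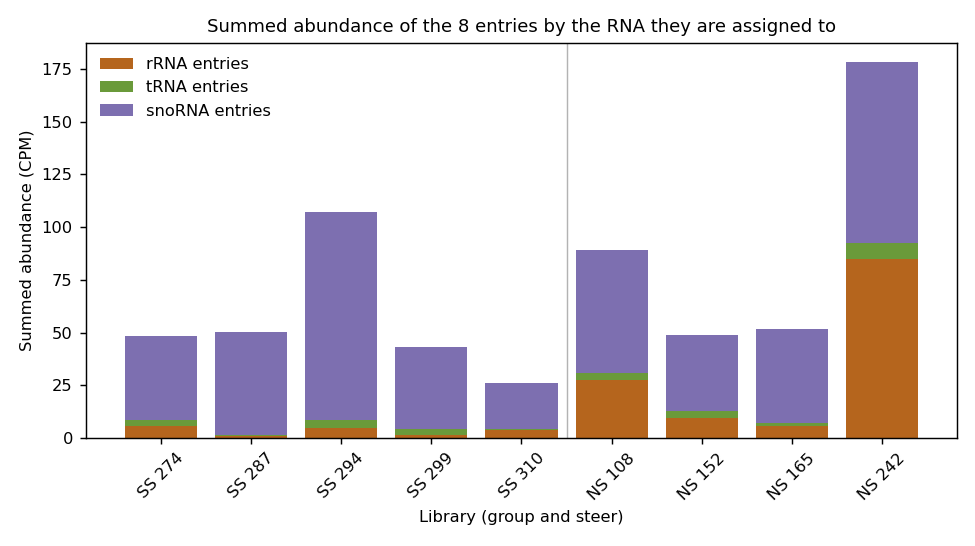
Summed abundance in CPM (linear axis) of the rRNA (brown), tRNA (green) and snoRNA (purple) entries in each library, SS left of NS. The sum is highest in NS steer 242 at 178 CPM, of which the rRNA entries hold 47.5%, and next in SS steer 294 at 107 CPM, where bta-miR-1291 takes 54.1%.

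Set against all miRNAs, the comparison of SS with NS called none of the entries in limma. The exact permutation could not call any of them by its own values. With the study's thresholds, an adjusted p below 0.1 and a log2 change of more than 1 either way, limma called 0 of the 3 entries that passed the filter (bta-miR-2904, bta-miR-664b and bta-miR-1291) and 0 of 245 miRNAs (0%), with 40 miRNAs at an unadjusted p under 0.05. Of these, 39 were lower in SS (15.9% of the 245) and 1 was higher (0.408%). The single entry among the 40 was bta-miR-2904, which passed the filter through 3 NS libraries and 1 SS library. This split depended on the scaling. In limma 13 were lower and 9 higher with TMM factors, and 12 and 10 with median-of-ratios factors. There the unadjusted limma p of bta-miR-2904 was 0.0633 and 0.0622. Its unadjusted p was 0.0506 in edgeR's quasi-likelihood test, 0.0296 in edgeR's exact test and 0.0292 in DESeq2. Of the count tests on the recovered reads of the 245, DESeq2 called 9, edgeR's exact test 1 and its quasi-likelihood test 0, none of them an entry described here. DESeq2 gave bta-miR-1291 no p, so it did not test that entry. With no filter, DESeq2 called 13 miRNAs, edgeR's exact test 6 and its quasi-likelihood test 0, and bta-miR-2887 was the single entry among the calls of both DESeq2 and the exact test. By exact permutation over all 515 miRNAs the adjusted p was under 0.1 for 0 miRNAs (0%). The smallest was 0.292, at the smallest exact permutation p of this design, 0.00794. An adjusted p under 0.1 would have needed more miRNAs at that smallest p, so this test could not pass an entry by its own values. The unadjusted exact p was under 0.05 and the level lower in SS for 10.7% of the 515, against 2 of the 8 entries, bta-miR-2904 and bta-miR-2887. It was under 0.05 and the level higher in SS for 0.388%, against 0 entries. All SS values lay outside the NS range for 1 of the 8 entries, bta-miR-2887, against 4.27% of all miRNAs lower in SS, or 2.22% of the 270 under the filter.

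**Figure D3:**
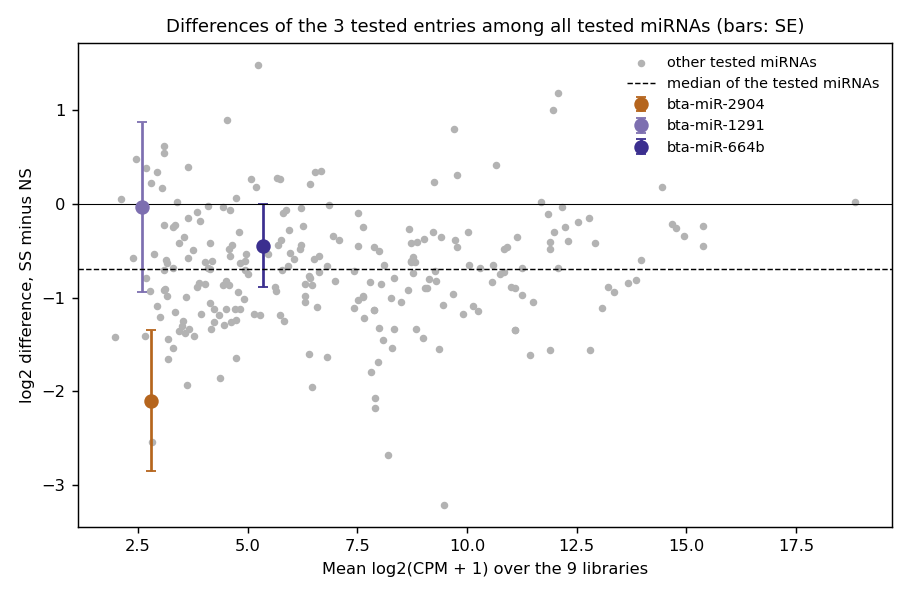
Log2 difference of SS minus NS (y axis) against mean log2(CPM + 1) over the 9 libraries (x axis) for the 245 tested miRNAs (grey), with bta-miR-2904, bta-miR-1291 and bta-miR-664b in colour, bars for the SE and a dashed line at the median miRNA. The median is -0.70, bta-miR-2904 lies at -2.10, and bta-miR-664b at -0.45 and bta-miR-1291 at -0.03 lie above the median line.

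The direction of bta-miR-664b depended on the scaling, and that of bta-miR-2904 did not under the scalings run. For bta-miR-1291, at -0.03 with the deposited values, it also turned with a pseudocount of 5 and without some single libraries. With TMM factors bta-miR-1291 was at 0.48 in limma and 1.35 in edgeR's quasi-likelihood test, so its size depended on the test as well. With the deposited values the median tested miRNA was at -0.70, and with TMM factors in limma it was at -0.04. Relative to that median, bta-miR-2904 was at -1.41 with the deposited values and -1.41 with TMM factors, and at -1.78 in edgeR's quasi-likelihood test. With the deposited values it was at -0.80 without NS steer 242, -0.97 without SS steer 287 and -0.82 with a pseudocount of 5. By the same measure bta-miR-664b was at 0.25 with the deposited values, 0.27 with TMM factors and 0.25 in edgeR's quasi-likelihood test, and with the deposited values it was at 0.12 to 0.41 when each library was left out. For bta-miR-1291 the values were 0.66, 0.52 and 1.33, but with the deposited values it was at 0.04 without SS steer 294, rank 133 from the lowest of the 245, and at 0.17 without NS steer 152.

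**Figure D4:**
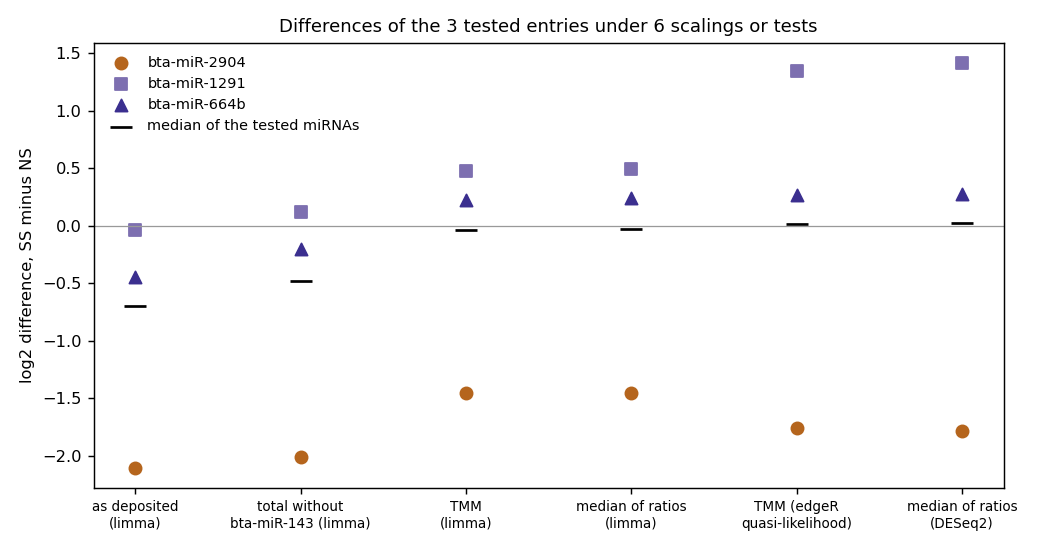
Log2 difference of SS minus NS (y axis) of bta-miR-2904 (circles), bta-miR-1291 (squares) and bta-miR-664b (triangles) under 6 combinations of scaling and test (x axis), with a dash for the median of the tested miRNAs. The circles stay between -2.10 and -1.45, while the triangles move with the median, from -0.45 with the deposited values to 0.28 in DESeq2.

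The miRNAs whose pattern over the 9 libraries was most like that of bta-miR-664b were bta-miR-23a (Pearson's r = 0.961), bta-miR-33b (0.955) and bta-miR-339b (0.955), on log2(CPM + 1) values. Without NS steer 242, where bta-miR-664b was highest, these were 0.936, 0.920 and 0.918. For bta-miR-2904 they were bta-miR-1468 (0.893), bta-let-7e (0.888) and bta-miR-1247-5p (0.867), or 0.759, 0.771 and 0.824 without NS steer 242. For bta-miR-1291 they were bta-miR-2332 (0.922), bta-miR-378c (0.828) and bta-miR-2285k (0.825), which fell to 0.821, 0.404 and 0.726 without SS steer 294. None of the 9 is a further entry of the 8. The correlations share library scaling, were picked as the highest among 245 miRNAs and are given as a description.

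Of 6 other miRNAs made by an unusual route, those that passed the filter were not called between SS and NS in limma either. Those under the filter could not pass by exact permutation on their own values. The miRNAs bta-miR-320a and bta-miR-484 come from capped transcripts that skip Drosha. Their abundance was 339 ± 185 and 114 ± 67.5 CPM in SS (SD, n = 5), against 845 ± 426 and 185 ± 68.4 CPM in NS (SD, n = 4). The log2 differences were -1.33 for bta-miR-320a (limma adjusted p = 0.297) and -0.82 for bta-miR-484 (limma adjusted p = 0.383). The erythrocyte miRNA bta-miR-451, which skips Dicer, was at -0.28 (limma adjusted p = 0.832). The mirtrons bta-miR-877 and bta-miR-1224, released by splicing, held 39 and 22 reads in all. Closest in kind to the 8 entries, bta-miR-6516, whose human namesake overlaps a small Cajal body RNA, held 11 reads and had 0 to 0.738 CPM in SS and 0.432 to 3.07 CPM in NS. In 4 of 5 SS libraries it was below every NS library (log2 difference -0.99, exact permutation p = 0.0238, 0.396 adjusted over all miRNAs).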

How the data were processed

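TruSeq small RNA libraries were read by the authors as single reads and assigned to miRBase sequences with the sRNA toolbox; the processing notes name Bowtie and edgeR. The sources used here give no version, miRBase release or genome build. The deposited values, called CPM or RPM by the authors, are recorded as a read-based signal, because column sums exceed 1000000. In all 9 columns 100% of values were whole reads times 1 step per library (tolerance 1e-06 reads), from which reads and library totals were recovered.

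SS were compared with NS by limma 3.58.1 (R 4.3.3, trended prior) on log2(CPM + 1) for 245 miRNAs at 5 CPM or more in at least 4 libraries, with Benjamini-Hochberg adjustment; the thresholds are the study's. Entries under this filter were tested by a two-sided exact permutation of mean log2(CPM + 1), adjusted over all 515 miRNAs. Since the table was planned for as CPM, edgeR 4.0.16 and DESeq2 1.42.0 on recovered reads were alternatives, beside other pseudocounts, filters, scalings and leaving out each library. The count tests with no filter were added after seeing the data. The limma, edgeR and DESeq2 fits were tested on reads simulated for miRNAs that passed the filter, and the permutation on simulated normal values. The count tests with no filter and the rule for outlying libraries were not. Intervals are Clopper-Pearson at 95%. A count of 0 was taken to allow up to 3 reads, a limit that lies below the upper end of that interval. The 8 entries were named by the rule, the likest miRNAs as the 3 with the highest Pearson correlation to each tested entry, and the others from a list. Members and lists were chosen with earlier results of these data known. The steers are separate animals. RefSeq ARS-UCD2.0 served for gene names and neighbours, without strand.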

Additional observations from a re-analysis of the deposited data

Results flagged for a closer look

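A library far from the rest of its group was found in 5 of 35 sets of values. The rule was Dixon's, the gap to the nearest value as a share of the range. Its chance rate of about 1 in 20 holds for independent normal values. These CPM values and ratios often rest on few reads and share entries, so that rate does not apply and the count is a description. SS steer 294 stood apart for bta-miR-1291, at 57.9 CPM against 1.13 to 4.07 CPM in the other SS libraries, and so did its ratio of bta-miR-1291 to bta-miR-664b, at 1.48 against 0.0291 to 0.117. The same library was highest for bta-miR-1248, at 1.35 CPM (2 reads), with the other SS libraries at 0 to 0.158 CPM. For NS steer 152 the ratio of bta-miR-1291 to bta-miR-664b was 0.0317, against 0.133 to 0.152 in the other NS libraries, and rests on 2 reads of bta-miR-1291. In NS steer 242 bta-miR-451, a miRNA of erythrocytes, was at 616 CPM, with the other NS steers at 22.9 to 48.8 CPM.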

How the results depend on the processing

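The log2 differences of bta-miR-2904 (22 alternatives), bta-miR-2478 and bta-miR-664a (18 each) kept their sign and did not pass in any. Those of bta-miR-2887 kept their sign in all 18 and passed in 2, edgeR's exact test (-3.19) and DESeq2 (-3.49), both with no filter and chosen after seeing the data. For entries under the filter, the alternatives by exact permutation could not pass any 1 entry by its own values. DESeq2 with no filter gave bta-miR-664a and bta-miR-1248 no adjusted p. For bta-miR-664b the sign turned to 0.23 (TMM) and 0.24 (median of ratios) in limma, 0.27 (edgeR, both tests) and 0.28 (DESeq2), and with no filter to 0.37 (edgeR, both tests) and 0.30 (DESeq2). For bta-miR-1291 it turned to 0.10 (pseudocount 5), 0.12 (total without bta-miR-143), 0.48 (TMM) and 0.49 (median of ratios) in limma, 1.35 (edgeR, both tests) and 1.42 (DESeq2), and with no filter to 1.40 (edgeR, both tests) and 1.45 (DESeq2). DESeq2 gave bta-miR-1291 no p, with or without the filter. For bta-miR-1260b it turned to 0.0654 (TMM) and 0.0672 (median of ratios), and with no filter to 0.40 (edgeR, both tests) and 0.33 (DESeq2). The cause was not tested.

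When each library was left out, the range was -2.58 to -1.33 for bta-miR-2904 (highest without NS steer 242), -2.65 to -1.83 for bta-miR-2887, -0.60 to -0.23 for bta-miR-664b, -0.86 to 0.33 for bta-miR-1291, -1.01 to -0.46 for bta-miR-2478, -0.51 to -0.08 for bta-miR-1260b, -0.37 to 0.0818 for bta-miR-1248 (above 0 without NS steer 242) and -0.38 to -0.17 for bta-miR-664a. The count of miRNAs called, 0 in limma, was 1 with no filter, 1 with a filter of 1 CPM, 1 in edgeR's exact test and 9 in DESeq2, and with no filter 6 and 13 in the last pair; it was 0 without each library in turn. By reads summed over all libraries, 5 of the 8 entries kept their place in the order. No paired analysis was possible because no steer number occurs in both groups and the study does not give the pen of each steer. Depth limits bta-miR-1248 and bta-miR-664a, which rest on 5 and 2 reads.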
